A study of Mus musculus with 2 samples.

Results

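Helper T cell lineage transcription factors are the proteins that direct a naive CD4 T cell into a helper fate and hold it there. The 9 genes described here are Tbx21, Eomes, Runx3, Runx1, Gata3, Rora, Bcl6, Maf and Prdm1. They were chosen by symbol, as known regulators of helper fates, and all 9 were found among the 24421 genes listed for each library. The levels of the factors were compared with each other within a library, and each factor was compared between the genotypes.

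RNA sequencing was done on in vitro skewed Th1 cells of C57BL/6J mice, with 1 sample of genotype Chi3l1+/+ (WT Th1) and 1 sample of genotype Chi3l1-/- (Chi3l1 KO Th1). Chi3l1 encodes a secreted chitinase-like protein that binds chitin without cutting it, and the study asked how its loss changes the Th1 transcriptome. The KO mice lack the gene in every cell and not in T cells alone. In both genotypes, naive CD4 T cells from young adult mice were stimulated through CD3 and CD28 with plate-bound antibodies and cultured with IL-12, IL-2 and an antibody that blocks IL-4. The methods describe a kit for CD4+CD25-CD62L+ cells and a flow sort that also required low CD44. Which of these supplied the sequenced cells is not stated, and neither was fully pure by the study's figures. Either way it was a selection against B, NK and CD8 T cells and against CD25+ regulatory T cells. The number of mice behind each library is not given in the sources used here.

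Naive CD4 T cells that receive IL-12 and interferon signals raise T-bet, the product of Tbx21, which opens the gene of IFNγ and opposes other fates. Eomes is its T-box relative, and Runx3 and Runx1 are DNA-binding partners that act with the non-DNA-binding subunit CBFβ. GATA3 is the Th2 counterpart of T-bet, RORα takes part in Th17 and innate lymphoid fates, and Bcl6 drives follicular helper (Tfh) cells. Bcl6 and Blimp-1, the product of Prdm1, repress each other, and c-Maf, the product of Maf, activates IL-10 and IL-4 and is used in several helper fates.

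With 1 library per genotype there is no replicate spread and no test between genotypes. The deposited values are log2 of a normalized count plus 1, and 70551236 rebuilt reads stood behind the genes of the WT-labelled library and 62888952 behind those of the KO-labelled library. The 95% intervals given below come from rebuilt read counts and are for counting error only. They treat reads as independent. PCR copies of a molecule are not independent reads, so the intervals can be too narrow even for that error. The targeted gene, listed as Chil1, had 1 read in the library labelled WT Th1 and 103 reads in the library labelled Chi3l1 KO Th1. This goes against the labels, a value per gene cannot show whether those reads lie in deleted exons, and every direction from KO to WT below rests on the labels as given. With 1 library each, no result can be given without these libraries. The defining markers of CD4 T cells were high in both. Cd4 had a log2 value of 14.32 in the WT-labelled library and 13.94 in the KO-labelled library, and Cd3e had 14.94 and 14.86. All 7 markers of the list were at 11.9 or above in both. Each of the 7 had a lower value in the KO-labelled library. The median log2 difference was -0.078, with a range from -0.525 for Cd5 to -0.002 for Lck. The interval included 0 for Cd3d (-0.089 to 0.038), Cd28 (-0.064 to 0.014) and Lck (-0.015 to 0.011). With a trend with GC content, described below, removed, Lck was at 0.13 and the other markers stayed lower.

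The factors differ in how their genes are built, which bears on the reads they collect. On GRCm38 (mm10, GENCODE M21), Tbx21 lies on the minus strand of chromosome 11 from 97098071 to 97115331 and its longest transcript has 2488 bases in 6 exons with a GC content of 59.3%. Eomes lies on chromosome 9 between 118478212 and 118486132 (plus strand), with 3560 bases at 53.9% GC. Runx3 lies on chromosome 4 between 135120652 and 135177990 (plus strand), with 3884 bases at 55.9% GC. Runx1 is on the minus strand of chromosome 16 from 92601466 to 92826149, with 5861 bases at 46.4% GC. Gata3 is on the minus strand of chromosome 2 from 9857078 to 9890034, with 3215 bases at 49.7% GC. Rora, on chromosome 9 between 68653786 and 69388246 (plus strand), has the longest transcript of the 9, with 10878 bases at 40.9% GC. Bcl6 is on the minus strand of chromosome 16 from 23965052 to 23988852, with 3933 bases at 50.6% GC. Maf is on the minus strand of chromosome 8 from 115682942 to 115707794, with 6360 bases in 1 exon at 47.4% GC. Prdm1 is on the minus strand of chromosome 10 from 44437177 to 44528501, with 5281 bases at 46.3% GC.

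Because reads with several alignments were counted, the transcripts of each factor were searched for stretches of 100 bases, the read length, that also occur in another gene. No such stretch was shared between any of the 9 factors, Runx1 and Runx3 included. Maf shared 3.72% of its stretches with Gm15655, a gene on the opposite strand, Eomes shared 0.48% with Gm33460, and Runx1 shared 0.06% with Gm26626. The other 6 factors shared none. Tbx21 and Prdm1 overlap no other annotated gene, while the other 7 each overlap at least 1 gene on the opposite strand, and whether strand was used in the counting is not given in the sources used here.

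Promoter windows from RefSeq (GRCm38.p6), from 250 bases before to 50 bases after the start site, were at hand for 8 of the 9 factors in 11 windows, and Maf had no entry. The distal windows of Runx3 and Runx1 are shown because they share a tandem copy of the RUNX motif, and because these related genes were both lower in the KO-labelled library. Capitals mark the motif TGTGGT, read here on the opposite strand as ACCACA. The Runx3 stretch is chr4:135120504-135120531 on the plus strand and has its first base at -141 from the start site, and the Runx1 stretch is chr16:92826026-92826053 on the minus strand and has its first base at 21.
Runx3: tccctcaACCACAgaACCACAaggccag
Runx1: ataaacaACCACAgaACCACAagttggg
The stretches were the same at 19 of 28 positions and had a common run of 18 bases. The tandem form (ACCACA, any 2 bases and ACCACA again) was searched on both strands. It was spelled out after these matches were seen, so its share is a description and not a test. The form was present in 7 of 32851 promoter windows (0.0213%), and the 1 window of Runx2, the third gene of the family, was among them. The differences of the other genes with the form are not given here, and a link between the form and expression was not tested. A motif of the RUNX family (TGTGGT or TGCGGT, both strands) was present in 22.4% of all windows and in the distal windows of Runx3 and Runx1 among the 11 of the factors. At least 2 such matches were present in 941 windows (2.86%). The values are per gene, so the share of Runx1 or Runx3 reads that starts at either promoter cannot be seen.

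The 250 bases before the distal start site of Runx3 are printed whole, with the same motif in capitals, to show the setting of the tandem copy (chr4:135120395-135120644, plus strand).
Runx3 distal promoter: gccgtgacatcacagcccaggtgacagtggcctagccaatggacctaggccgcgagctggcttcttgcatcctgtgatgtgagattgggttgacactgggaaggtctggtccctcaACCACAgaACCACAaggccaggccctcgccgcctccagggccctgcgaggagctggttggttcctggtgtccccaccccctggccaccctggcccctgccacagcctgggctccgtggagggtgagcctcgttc
The second window of Bcl6 is printed because it held 3 matches to the GAS motif TTCNNNGAA, the form that STAT proteins bind, and STAT signals are known to act on Bcl6 (chr16:23981284-23981533, minus strand, GAS matches in capitals).
Bcl6 second promoter: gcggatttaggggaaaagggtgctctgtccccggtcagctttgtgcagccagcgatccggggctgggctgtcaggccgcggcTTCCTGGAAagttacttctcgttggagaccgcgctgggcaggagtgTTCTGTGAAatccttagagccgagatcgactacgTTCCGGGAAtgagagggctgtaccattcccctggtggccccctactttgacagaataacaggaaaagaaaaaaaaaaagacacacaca
A GAS match was present in 8.3% of all windows. The second Bcl6 window was among 11 windows (0.0335%) with 3 or more matches, a cut equal to its own count. The first window of Bcl6 held 1 further match, and no other factor had one. None of the 11 windows held the T-box motif TCACACC, present in 3.98% of all windows, or the GATA motif (AGATAA or TGATAA), present in 18.6%. Matches are letters in a window and not measured binding.

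Within each library the factors spanned a wide range, and the Th1 factor Tbx21 stood highest per kb. Without division by length, Runx3 and Runx1 stood above it in the WT-labelled library, where Tbx21 ranked 3. Levels are compared as normalized counts per kb of the longest transcript, on a linear scale. In the WT-labelled library, Tbx21 had a level of 6494 per kb (95% counting interval 6396 to 6594), Runx3 had 4677 and Runx1 had 3046. Of the 14830 genes with a value above 0 and a transcript length, 4.9% had a higher level than Tbx21, 6.5% a higher level than Runx3 and 9.5% a higher level than Runx1. Gata3 followed with a level of 1121 per kb, Eomes with 575 and Bcl6 with 205. Prdm1 had 68.0 per kb, Rora 41.9 and Maf 13.0, the lowest of the 9, with 79.6% of the genes at a higher level than Maf. Tbx21, Runx3 and Runx1 thus made up 40.0%, 28.8% and 18.8% of the summed level of the 9 factors. The counting intervals of no neighbours in this order overlapped, and the smallest step was that from Tbx21 to Runx3, of 1.39-fold.

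In the KO-labelled library the order was the same except that Eomes and Gata3 changed places. Tbx21 had a level of 5404 per kb (5315 to 5495), Runx3 had 3316 and Runx1 had 2266. Eomes had 745 per kb (717 to 773) and Gata3 had 720 (692 to 750). The intervals of Eomes and Gata3 overlapped, so their order in this library does not hold up against counting error. Bcl6 followed with a level of 178 per kb, Prdm1 with 119, Rora with 47.4 and Maf with 19.5, and no other neighbours had overlapping intervals. The plot of levels shows the steps from Tbx21 down to Maf in both libraries.

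**Figure D1:**
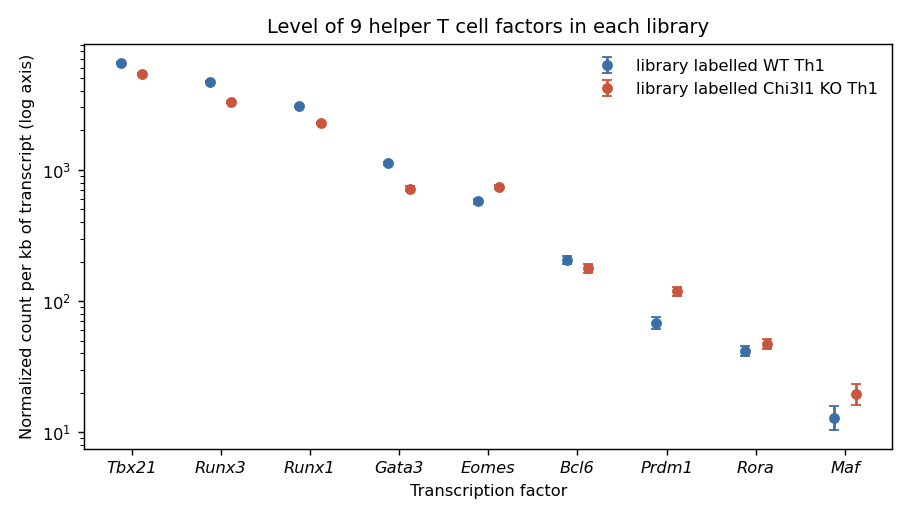
Level of each factor, as normalized count per kb of the longest transcript on a log axis, in the library labelled WT Th1 (blue) and the library labelled Chi3l1 KO Th1 (red). Points are single libraries and bars are 95% Poisson intervals of the read count, and the levels run from 6494 per kb for Tbx21 to 13.0 for Maf in the WT-labelled library, with Eomes above Gata3 in the KO-labelled library only by less than the counting error.

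Between the genotypes, no factor differed by 2-fold, and the factors did not move as a block. Of the 9 factors, 4 were higher in the KO-labelled library and 5 were lower, with log2 differences (KO minus WT, deposited values) from -0.64 for Gata3 to 0.80 for Prdm1. The median over the 9 was -0.21, against 0.0 over all 24421 genes and -0.01 over the 8886 genes with a log2 value no lower than 8 in either library. The median of the factors was -0.09 with scaling to Actb and -0.05 with the GC trend removed. At 2-fold, 0 of 9 factors were past the threshold, where 10.5% of all genes (4.7% higher and 5.81% lower in the KO-labelled library) and 1.2% of the 8886 well expressed genes were. Scaled to Actb instead, the split of all genes past 2-fold went from 1147 higher and 1418 lower to 1475 higher and 1184 lower, while the factors kept 4 higher and 5 lower. At 1.5-fold, 2 of 9 were past it, Prdm1 upward and Gata3 downward, where 21% of all genes (9.6% higher and 11.4% lower) and 10.2% of the well expressed genes (3.95% higher and 6.29% lower) were. The count among the factors is near the share of all genes, so it is not a result about the factors. The read-sampling interval excluded 0 for 8 factors and included it for Rora, but it holds no variation between mice, cultures or library preparations. In bulk RNA, fewer cells that express a factor and less of its RNA per cell cannot be told apart.

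**Figure D2:**
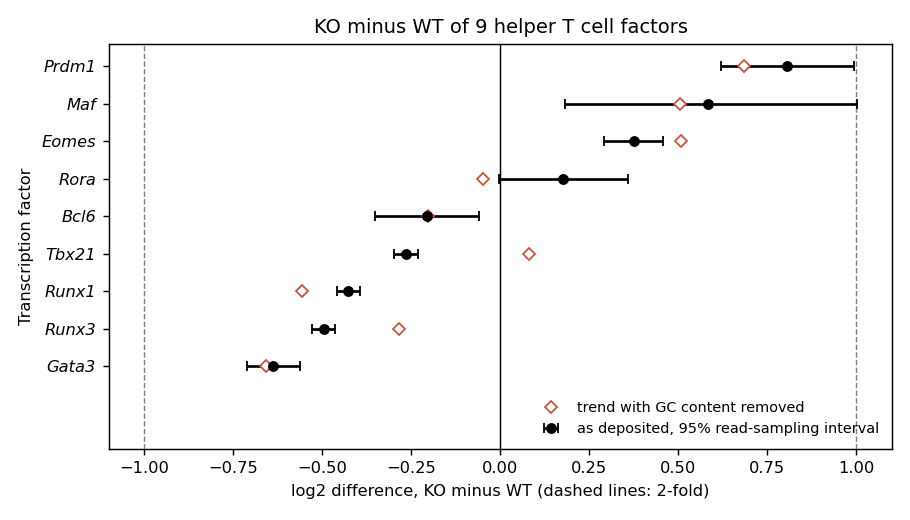
log2 difference of each factor, KO minus WT, as deposited (black points, with 95% exact binomial intervals for read sampling only) and with the trend with transcript GC content removed (open diamonds). No factor passes the dashed lines at 2-fold, Gata3 is lowest at -0.64 and Prdm1 highest at 0.80, and Tbx21 and Rora change side when the GC trend is removed.

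Tbx21, the T-bet gene, was lower in the KO-labelled library. Its deposited log2 value was 13.98 in the WT-labelled library and 13.715 in the KO-labelled library, from 16654 and 13882 reads. The log2 difference was -0.27 (95% interval -0.30 to -0.23), a percent change of -16.8%. Among the 1958 genes with a mean log2 value from 12 to 14, 27.0% were lower by as much or more, so the difference lies inside the spread of genes of its level. Tbx21 has the most GC-rich transcript of the 9. Well expressed genes of its GC content had a median log2 difference of -0.35, and with this trend removed the difference of Tbx21 was 0.08.

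Eomes, which in CD8 T cells and NK cells drives cytotoxic genes, was higher in the KO-labelled library. Its log2 value was 11.00 in the WT-labelled library and 11.37 in the KO-labelled library, from 2108 and 2737 reads, a log2 difference of 0.37 (0.29 to 0.46). As many as 13.1% of the 3390 genes with a mean from 10 to 12 were higher by this much. With the GC trend removed, the difference was 0.51. NK and CD8 T cells also express Eomes. Of the NK markers, Ncr1 and Klre1 had 0 reads in the WT-labelled library, and both CD8 markers had reads in both libraries. The 6 NK markers, Eomes itself included, summed to 2359 normalized counts in the WT-labelled library and 2881 in the KO-labelled library, most of it from Eomes. Ncr1 had 0 and 6 reads in the WT-labelled and KO-labelled libraries, Klrb1c had 17 and 9, Klre1 had 0 and 2, Klra8 had 11 and 39, and Fcer1g had 295 and 181. Cd8a had 288 and 437 reads and Cd8b1 had 549 and 396, that is, 1 of these was higher and 1 lower in the KO-labelled library. The purification before culture selected against both cell types, and their part in the level of Eomes was not tested.

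Runx3 and Runx1 were both lower in the KO-labelled library. Runx3, which silences Cd4 in cytotoxic T cells and Il4 in Th1 cells, had log2 values of 14.15 and 13.65, from 18723 and 13298 reads. Its log2 difference was -0.50 (-0.53 to -0.46), and 9.2% of genes with a mean from 12 to 14 were lower by as much. Runx1, which maintains naive T cells and is needed from the thymus on, had log2 values of 14.12 and 13.70, from 18402 and 13710 reads. Its log2 difference was -0.43 (-0.46 to -0.40), and 13.0% of genes of its level were lower by as much. Removing the GC trend moved them in opposite ways, to -0.29 for the GC-rich Runx3 and to -0.56 for Runx1.

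The ratio of Runx3 to Runx1 was close in the libraries. Per kb, Runx3 was 1.535 times Runx1 in the WT-labelled library and 1.46 times in the KO-labelled library, and the change in the log2 ratio was -0.07 (-0.11 to -0.02). This change was 0.27 with the GC trend removed, so its direction depends on that step. Cbfb, the partner subunit of both, was higher by 0.47 (0.42 to 0.53) and 0.28 with the GC trend removed. The paralog Runx2 had a level of 226 per kb in the WT-labelled library and 151 in the KO-labelled library, a log2 difference of -0.58 (-0.70 to -0.47), so all 3 RUNX genes were lower.

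Gata3 had the largest downward difference of the 9. Its log2 value was 11.82 in the WT-labelled library and 11.18 in the KO-labelled library, from 3715 and 2391 reads, a percent change of -35.7%. The log2 difference was -0.64 (-0.71 to -0.56), and 4.1% of the 3390 genes with a mean from 10 to 12 were lower by as much. The GC trend at this transcript was close to 0, and the difference was -0.66 without it. Zfpm1, which encodes the GATA cofactor FOG1, had -0.36 (-0.40 to -0.32) and 0.10 with the GC trend removed.

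The ratio of Tbx21 to Gata3, which sets the Th1 factor against the Th2 factor, does not depend on a scaling factor between the libraries. Per kb, Tbx21 was 5.79 times Gata3 in the WT-labelled library and 7.50 times in the KO-labelled library. The log2 ratio was 2.53 (2.48 to 2.59) and 2.91 (2.85 to 2.97), and its change was 0.37 (0.29 to 0.46). The lower Gata3 value raised this ratio, and the lower Tbx21 value reduced it. The change was 0.74 with the GC trend removed. The ratio of Tbx21 to Eomes went the other way, from 11.3 in the WT-labelled library to 7.26 in the KO-labelled library, a log2 change of -0.64 (-0.73 to -0.55), or -0.43 with the GC trend removed.

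Rora and Bcl6 had the smallest differences. Rora had log2 values of 8.84 and 9.01, from 470 and 532 reads, and a log2 difference of 0.18 with an interval from -0.01 to 0.36, so a difference was not detectable at this depth. With the GC trend removed it was -0.05. Bcl6 had log2 values of 9.66 and 9.45, from 832 and 722 reads, and a log2 difference of -0.21 (-0.35 to -0.06). Of the 3034 genes with a mean from 8 to 10, 27.6% were lower by as much as Bcl6.

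Prdm1 and Maf were the factors with the largest upward differences. Prdm1 had log2 values of 8.49 and 9.30, from 370 and 648 reads, and its level was 74.6% higher in the KO-labelled library. The log2 difference was 0.80 (0.62 to 0.99), and 3.0% of the 3034 genes with a mean from 8 to 10 were higher by as much. With the GC trend removed it was 0.68. Maf had log2 values of 6.38 and 6.97 (6.965), from only 85 and 128 reads, and its log2 difference of 0.58 had a wide interval from 0.18 to 1.001. It lay just under 1.5-fold and passed it with a pseudocount of 0.1 (0.588), with no pseudocount (0.589), with median-ratio scaling (0.587) and with scaling to Actb (0.698), where Gata3 at -0.52 did not pass. Of the 2117 genes with a mean from 6 to 8, 15.6% were higher by as much as Maf.

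Prdm1 and Bcl6, which repress each other, differed in opposite directions between the libraries. The level of Prdm1 per kb was 0.331 times that of Bcl6 in the WT-labelled library and 0.668 times in the KO-labelled library. The log2 ratio was -1.59 (-1.78 to -1.42) and -0.58 (-0.74 to -0.43), and its change of 1.01 (0.78 to 1.25) was the largest of the 6 ratios computed. It was 0.89 with the GC trend removed. Which of these genes is higher in the KO-labelled library depends on the length used for Bcl6. With the union of exons in place of the longest transcript, which for Bcl6 has only 3 exons, the log2 ratio was -0.90 in the WT-labelled library and 0.11 in the KO-labelled library.

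B lineage cells also express Bcl6 and Prdm1, so their markers were read beside these genes. Of the 8 B or plasma cell markers, all were listed, their summed normalized counts were 1220 in the WT-labelled library and 2188 in the KO-labelled library, and 6 of the 7 with a log2 value at or above 4 in 1 or both libraries were higher in the KO-labelled library. Pax5, a factor that B cells need, had 95 and 177 reads. The plasma cell gene Sdc1 had 123 and 113 reads, a log2 difference of -0.12 with an interval from -0.51 to 0.26. Jchain, the other plasma cell gene, had 0 and 2 reads, too few to show a direction. The purification before culture selected against B cells, and their part in the values of Bcl6 and Prdm1 was not tested.

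**Figure D3:**
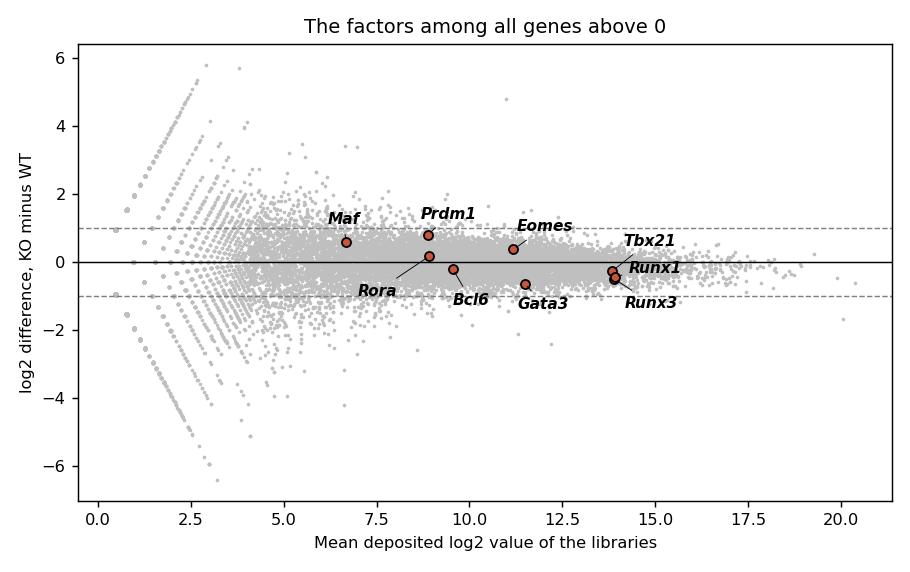
log2 difference, KO minus WT, against the mean deposited log2 value of the libraries for every gene above 0 in at least 1 library (grey), with the 9 factors in red. The factors lie between the dashed 2-fold lines at every level, and the grey cloud widens toward low values, where Maf lies.

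A trend with base composition ran through the well expressed genes. Among 8579 genes with a log2 value no lower than 8 in either library and a transcript, the median log2 difference was 0.23 in the most AT-rich of 20 bins of GC content and -0.45 in the most GC-rich. The 4 factors that were higher in the KO-labelled library had a GC content from 40.9% to 53.9%, and the 5 that were lower had 46.4% to 59.3%, so these ranges overlapped. Gata3, Runx1 and Prdm1 lay farthest from the trend, at -0.66, -0.56 and 0.68, and Maf and Eomes lay above it at about 0.51 each. Runx3 lay at -0.29 and Bcl6 at -0.20, and Tbx21 and Rora were within 0.1 of the trend.

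**Figure D4:**
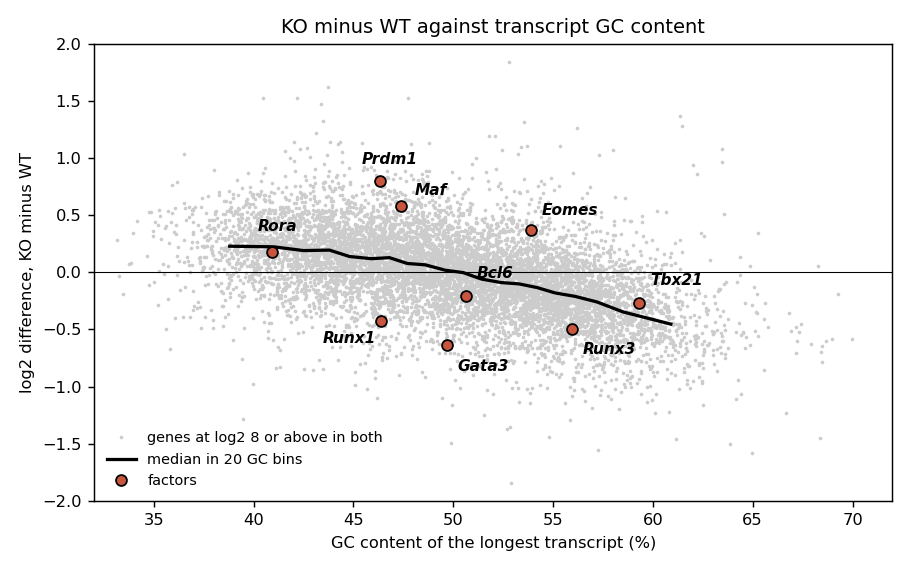
log2 difference, KO minus WT, against the GC content of the longest transcript (%) for genes with a log2 value no lower than 8 in either library (grey, drawn between -2 and 2), with the median in 20 bins of GC content (black line) and the 9 factors (red). Tbx21 and Rora lie near the line, Gata3 and Runx1 below it, and Prdm1, Maf and Eomes above it.

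The genes that these factors are known to control were compared next, as lists of known targets and lineage genes. Counts are over genes with a log2 value at or above 4 in 1 or both libraries, where 8.33% of 13275 genes differed by 2-fold (3.59% higher and 4.75% lower in the KO-labelled library) and the median log2 difference was -0.01. Of the 12 T-bet and Eomes targets, 8 were higher and 4 were lower in the KO-labelled library, with a median of 0.17, and 1 was past 2-fold upward and 2 downward. Ifng, the signature Th1 cytokine, had the largest upward difference, with 3478 and 8719 reads and a log2 difference of 1.32 (1.27 to 1.38). Il12rb2, the IL-12 receptor chain that Th1 cells keep, had 0.45 (0.42 to 0.48). The largest downward difference was that of the chemokine gene Ccl5, with -1.36 (-1.57 to -1.15), and Cxcr3, a chemokine receptor gene under T-bet control, had -1.23 (-1.56 to -0.92). The T-bet and Eomes targets thus differed in both directions beside a slightly lower Tbx21 and a higher Eomes.

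Th2 genes were few in reads, except receptors that other T cells also carry. Of the 6 GATA3 and Th2 genes at this level, 4 were higher and 2 lower, with a median of 0.22 and 1 past 2-fold, beside the lower Gata3. Il4 had 1 read in the WT-labelled library and 9 in the KO-labelled library, a log2 difference in deposited values of 2.33 with an interval of the count ratio from 0.32 to 8.62. Il5 had 0 and 3 reads, too few to show a direction (interval from -1.28 with no upper limit). Il13 had 33 and 43 reads and a log2 difference of 0.37 (-0.31 to 1.08). Among the 6 genes that reached a log2 value of 4, Il24 had the largest upward difference, 1.34 (0.93 to 1.79), and Il1rl1, the IL-33 receptor gene, the largest downward, -0.56 (-1.03 to -0.11).

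Th17 genes were at or near the lower limit beside Rora. Il17a had 0 reads in both libraries. Only 3 of the 8 Th17 genes reached a log2 value of 4, and all 3 were higher in the KO-labelled library. Ccr6, a chemokine receptor gene of Th17 and B cells, had the largest difference of these 3, 1.54 (1.04 to 2.10), and Ahr the smallest, 0.53 (0.18 to 0.89).

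Of the 10 Bcl6 and Tfh genes, 7 were higher and 3 lower in the KO-labelled library, with a median of 0.24, beside a lower Bcl6. Cxcr5, the receptor that takes Tfh cells to follicles and is also high on B cells, had the largest upward difference, 1.07 (0.87 to 1.28). Il21, the Tfh cytokine, had 0.51 (0.37 to 0.66). Ascl2 had the largest downward difference, -1.83 (-2.53 to -1.25), from 102 and 28 reads. Tcf7, which encodes TCF-1 and acts upstream of Bcl6, was among the most abundant factors of these cells, with 20910 per kb in the WT-labelled library and 13700 in the KO-labelled library, above Tbx21 in both libraries, and its log2 difference was -0.61 (-0.63 to -0.59).

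Among the genes linked to c-Maf and Blimp-1, Il10 differed most, beside higher Maf and Prdm1. It had 23 and 58 reads, a log2 difference of 1.30 (0.61 to 2.10). The 8 genes of this list at a log2 value of 4 or above were otherwise near 0 or lower, with 2 higher, 6 lower and a median of -0.09. Il2, which Blimp-1 represses, had 0.07 (-0.11 to 0.25), and Bach2, a repressor of Prdm1, had the largest downward difference, -0.40 (-0.44 to -0.35). Of the 11 cofactors and partners at this level, 2 were higher and 9 lower, with a median of -0.29, none past 2-fold, and differences from -0.58 for Nacc1, a Bcl6 partner, to 0.47 for Cbfb. The GC trend bears on this list, and the split into higher and lower depends on it. When it was removed, Hdac5 went from -0.34 to 0.11 and Zfpm1 from -0.36 to 0.10. Bcor likewise went from -0.085 to 0.016 and Mta3 from -0.035 to 0.066. Ezh2 went the other way, from 0.028 to -0.111, and the rest kept their side.

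**Figure D5:**
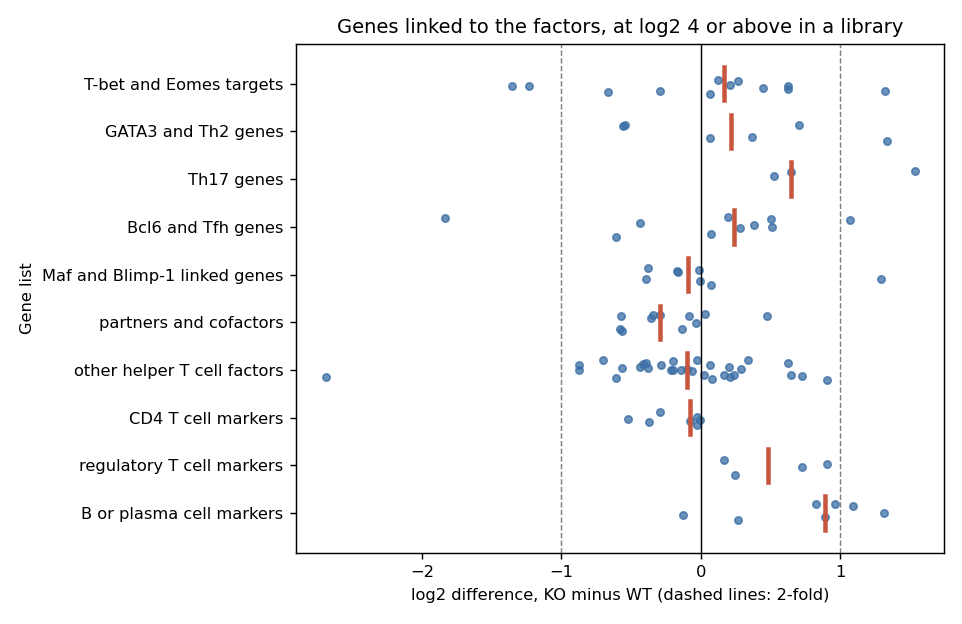
log2 difference, KO minus WT, of each gene (blue points, spread vertically for display) in 10 lists linked to the factors, for genes with a log2 value at or above 4 in 1 or both libraries, with the median of each list as a red bar and dashed lines at 2-fold. Lists spread to both sides of 0 for T-bet and Eomes targets (median 0.17), while B or plasma cell markers have a median of 0.89.

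Foxp3, the lineage factor of regulatory T cells, was at a level like that of Eomes. It had 512 per kb in the WT-labelled library and 846 in the KO-labelled library, and a log2 difference of 0.72 (0.65 to 0.81). All 4 regulatory T cell markers were higher in the KO-labelled library, with a median of 0.49 (Ctla4 was at -0.03 with the GC trend removed). Ikzf2, which encodes Helios, had the largest difference at 0.91 (0.64 to 1.19) and Ctla4 the smallest at 0.16 (0.13 to 0.19). Il2ra had 59956 and 71221 reads and Ctla4 had 16746 and 18794, far more than Foxp3 (2022 and 3347) and Ikzf2 (167 and 315). Bulk values cannot show how many of the Il2ra and Ctla4 reads came from regulatory T cells. Regulatory T cells are known to carry Gata3, Prdm1, Maf and Rora. Of these, Gata3 was lower and Prdm1 and Maf were higher, while the interval of Rora (-0.01 to 0.36) included 0. CD25+ regulatory T cells were selected against before culture, and the part of such cells in those values was not tested. Over the 31 other helper T cell factors, 13 were higher and 18 lower with a median of -0.10. Past 2-fold was 1 gene of these, Twist1, which restrains T-bet and Runx3 and had 44 and 6 reads (log2 difference -2.69, interval -4.40 to -1.64).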

How the data were processed

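RNA from 1 WT and 1 Chi3l1 KO Th1 culture was sequenced by the authors (oligo-dT selected, paired reads). The submitters' processing notes name TopHat, edgeR and mm10, and per the methods, unique and multiple alignments were counted and a global normalization was applied. The annotation is not given in the sources used here. The unit of the deposited values, log2 after adding 1 to a normalized count, was inferred from the values. With this undone, low values form a ladder with a step of 0.970 and an offset of -0.0326 in the WT-labelled library and 0.969 and -0.0355 in the KO-labelled library. All values below 60 lay within 0.1 read of a rung, and reads were rebuilt from it. At 3 reads the deposited scale stands at 1.96 in the WT-labelled library and 1.95 in the KO-labelled library. No count test was run, since each group has 1 sample.

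Intervals of differences are exact Clopper-Pearson intervals of the read ratio, levels have Poisson intervals, and changes of ratios have exact conditional intervals of the odds ratio, all at 95%. Lengths and GC content came from GENCODE M21, which held 96.0% of symbols with a value of at least 1. The members and lists were chosen with earlier results of these data known. Named beyond the 9 are genes fixed in a rule and the largest difference each way in each list. Other genes named (single markers, Mga, Tbx6, Gata1, Gata2, Rorb, Bcl6b, the PRDM and small Maf genes, Hdac5, Bcor, Mta3 and Ezh2) were chosen after their values were seen. Some genes of the lists are not reported here by name. The tools were scipy 1.17.1, matplotlib 3.10.9, pandas 2.3.3 and numpy 2.4.6 under Python 3.11.15, and scripts were tested on simulated data.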

Additional observations from a re-analysis of the deposited data

How the results depend on the processing

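No paired analysis was possible because each genotype has 1 sample, and for the same reason no sample could be left out. The differences of the 9 factors were recomputed with a pseudocount of 0.1, with no pseudocount, with median-ratio scaling, with quantile normalization, with scaling to Actb and with the GC trend removed. Of the 54 values, 41 stayed inside the read-sampling interval. The sign held throughout for 7 factors, and Tbx21 (0.08) and Rora (-0.05) changed sign with the GC trend removed. The count past 2-fold was 0 in each of these, and with the values as deposited it was 2 at 1.5-fold. Without the GC trend, the median over the factors was -0.048, and it was -0.09 with scaling to Actb, which sets the median of well expressed genes at 0.105. That scaling turns the 1147 genes higher and 1418 lower at 2-fold into 1475 and 1184. The share of genes past 2-fold was 1.2% with a floor of 8. With no length division, 4 factors kept their rank in the WT-labelled library, and Tbx21 ranked 3. The log2 ratio of Tbx21 to Gata3 was 2.841 in the WT-labelled library and 3.214 in the KO-labelled library with the union of exons, and its change was 0.738 with the GC trend removed and 0.491 after quantile normalization. The longest coding transcript, chosen after seeing the data, kept all ranks.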

Other observations

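The relatives of the factors within their gene families were mostly low, with exceptions. Of the T-box genes, Mga, a partner of the Max protein, had a level of 170 per kb in the WT-labelled library and 203 in the KO-labelled library, and Tbx6 had 87.1 and 98.1, all below Eomes in either library. Tbx3 had the largest upward difference among the 22 paralogs with a log2 value at or above 4 in 1 or both libraries, at 1.83 (95% interval 1.18 to 2.63) from 22 and 81 reads, and Tbx1 the largest downward, at -2.12 (-3.56 to -1.13) from 38 and 8 reads. Of these 22, 15 were higher and 7 lower in the KO-labelled library, 5 were past 2-fold upward and 2 downward (3.59% and 4.75% of the 13275 genes at this level), and 8 of the 37 paralogs were at 0 in both libraries.

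Gata2 had 232 reads in the WT-labelled library and 67 in the KO-labelled library, a log2 difference of -1.78 (-2.21 to -1.40), in the same direction as Gata3, while Gata1 had 318 and 360 reads (0.18, -0.05 to 0.40). Gata2 is known from mast cells and progenitors. Of the mast cell and innate lymphoid markers, Cpa3 had 11 and 5 reads, Fcer1a had 4 and 0, Mcpt4 had 0 in both and Kit had 121 and 187. Of the 7 neutrophil markers, 3 reached a log2 value of 4, all of them lower in the KO-labelled library. Ngp had 23 and 0 reads, Elane 20 and 0, and Mpo 32 and 5. Of the 8 macrophage or dendritic cell markers, 5 reached this value, with 2 higher, 3 lower and a median of -0.81. The 8 markers summed to 356.9 normalized counts in the WT-labelled library and 331.9 in the KO-labelled library. Among them, Lyz2 had 34 and 2 reads, Itgax 44 and 5, Csf1r 97 and 174, Flt3 18 and 68, and Adgre1 0 in both. The part of such cells in the values of the GATA genes was not tested.

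Rorb, which neurons are known for, had 95 and 218 reads and a log2 difference of 1.19 (0.84 to 1.56), and Bcl6b, the closest relative of Bcl6, had 22 and 47 reads and a difference of 1.06 (0.33 to 1.89), opposite in direction to Bcl6. Among the PRDM genes, Prdm4 (1540 and 1820 per kb) and Prdm2 (749 and 864 per kb) stood above Prdm1 (68.0 and 119). So did Prdm16 (471 and 479 per kb) and Prdm15 (102 and 138 per kb). Prdm10 (120 and 111 per kb) did so in the WT-labelled library only. The log2 differences of Prdm4, Prdm2, Prdm16 and Prdm15 were 0.24, 0.21, 0.02 and 0.43, all smaller than that of Prdm1. In the Maf family, the small proteins Maff, Mafg and Mafk had 664, 199 and 153 per kb in the WT-labelled library, all above Maf at 13.0, with differences of -0.26, 0.03 and 0.02.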
